A study of Mus musculus with 8 samples.

Results

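The genes described here are 9 genes of cortical GABA interneurons on their way into the dorsal cortex: the homeobox genes Dlx1, Dlx2 and Dlx5, the LIM homeobox gene Lhx6, the GABA synthesis genes Gad1 and Gad2, the vesicular GABA transporter gene Slc32a1, and the neuropeptide genes Sst and Npy. They were chosen by name, as markers of this cell type, out of 23284 gene symbols counted in each library, and all 9 were among the 14696 genes that passed the filter on low counts. RNA came from the dorsal cortex of C57BL/6 mouse embryos at E15.5, from which the meninges and the ganglionic eminences had been dissected away. There were 4 libraries labelled WT and 4 labelled ErbB4-/-, and the question asked of them was which genes differ in cortex that lacks the receptor ErbB4. The ErbB4-/- line carries a heart-specific ErbB4 transgene under the α-MHC promoter, which lets embryos survive a loss that is otherwise lethal. Both lines were bred as homozygous colonies, so littermates did not serve as controls. The labels do not say whether the 4 libraries of a genotype came from separate embryos or litters, and p-values measure only the spread between these libraries.

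GABA interneurons of the cortex are born in the ganglionic eminences of the ventral forebrain and migrate tangentially into the dorsal cortex, where they join locally born glutamatergic neurons. Dlx1 and Dlx2 open this programme and act upstream of Dlx5. Lhx6 is switched on downstream of Nkx2-1 in cells of the medial ganglionic eminence and directs the somatostatin and parvalbumin subtypes. Many of the migrating cells carry ErbB4, a receptor tyrosine kinase for neuregulins, and neuregulins are known as attractants on their route. In whole tissue, fewer interneurons and less RNA of a gene per interneuron cannot be told apart.

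The promoters of 3 of the genes are shown because the results turn on them: Dlx1 and Dlx2 had the most alike levels over the libraries, and Sst had the strongest relation to Erbb4. Each sequence is the 250 bases before the RefSeq start site on the coding strand (GRCm38.p6). Sst lies on the minus strand (chr16:23890845-23891094), Dlx1 on the plus strand (chr2:71529195-71529444) and Dlx2 on the minus strand (chr2:71546755-71547004). Capitals mark the cAMP response element in Sst and the GC box in Dlx2, while Dlx1 held no searched motif.
Sst: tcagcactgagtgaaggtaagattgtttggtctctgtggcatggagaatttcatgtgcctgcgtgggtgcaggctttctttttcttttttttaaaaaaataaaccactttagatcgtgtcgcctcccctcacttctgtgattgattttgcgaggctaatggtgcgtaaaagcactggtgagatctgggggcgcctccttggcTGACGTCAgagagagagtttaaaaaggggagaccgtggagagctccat
Dlx1: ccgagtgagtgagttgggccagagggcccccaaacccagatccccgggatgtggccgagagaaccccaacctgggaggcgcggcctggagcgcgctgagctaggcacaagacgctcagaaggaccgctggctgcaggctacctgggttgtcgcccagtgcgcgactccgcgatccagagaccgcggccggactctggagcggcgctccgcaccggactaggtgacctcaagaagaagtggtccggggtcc
Dlx2: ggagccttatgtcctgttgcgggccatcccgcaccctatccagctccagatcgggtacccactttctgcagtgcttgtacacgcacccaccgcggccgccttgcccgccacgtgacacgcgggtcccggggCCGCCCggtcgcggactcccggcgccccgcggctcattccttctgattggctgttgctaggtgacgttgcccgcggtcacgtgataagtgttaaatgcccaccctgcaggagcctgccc

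RefSeq windows were found for 8 of the 9 genes, in 10 windows, since Lhx6 has 3 start sites. Both strands were searched for the cAMP response element TGACGTCA, the homeodomain core TAATTA, the GC box GGGCGG and the TATA box TATAAA, and no matches overlapped. The cAMP response element was found in Sst alone, from base -48 to base -41 before the start, and in 1.55% of all 32851 windows of this length. A GC box was found in 5 of the 10 windows, those of Dlx2, Gad1, Npy and 2 of Lhx6, against 32.7% of all windows. The TATA box letters were found in Gad1 alone, against 12.4% of all windows. No window held TAATTA, which 4.84% of all windows hold. These are matches of letters and were not tested as binding sites.

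In the authors' build (mm9), 6 of the 9 genes lie on chromosome 2. Dlx1 lies on the plus strand from 71366170 to 71372038 and Dlx2 on the minus strand from 71381466 to 71384811, tail to tail with 9427 bases between them. Gad1 lies from 70391129 to 70440071, Gad2 from 22477725 to 22549394, Lhx6 from 35937470 to 35960928 and Slc32a1 from 158436494 to 158441484. Dlx5, from 6827805 to 6832085, and Npy, from 49772709 to 49779506, lie on chromosome 6. Sst lies on chromosome 16 from 23889667 to 23890930. None shares its chromosome with Erbb4, which lies on chromosome 1 from 68078760 to 69154633. The libraries did not keep the strand, and 2 of the genes share exon sequence with an antisense transcript in the annotation. These were Dlx1, with 335 of its 5396 exonic bases (6.21%) shared with Dlx1as, and Slc32a1, with 697 of 2806 (24.8%) shared with Gm14205, so their counts are less certain.

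Between 28205703 and 48871480 reads were counted per library. Levels are given as CPM, read counts scaled to a common library size by the TMM method, with factors from 0.994 to 1.01. Each of the 9 genes was covered by 477 to 6163 reads in every library, so counting error was small, from 1.59% to 3.67% per gene, against a coefficient of variation between libraries of a genotype from 5.31% to 22%. Erbb4 itself had 8.99, 19.9, 25.3 and 19.2 CPM in WT replicates 1 to 4 and 20.9, 24.6, 20.7 and 23.5 CPM in ErbB4-/- replicates 1 to 4. It was not lower in the libraries labelled ErbB4-/-, as its log2 fold change was 0.28 with a standard error of 0.23 (adjusted p = 0.812 in edgeR's quasi-likelihood test), and the gene-level counts do not show which exons were read. Genotypes are therefore those of the labels throughout. In WT replicates 1 to 3 Xist had 983 to 1687 CPM and the Y-linked Ddx3y under 0.5, whereas WT replicate 4 and all ErbB4-/- libraries had 2.7 to 3.82 CPM of Xist and 76.4 to 80.9 of Ddx3y. Genotype and sex-linked pattern can thus be separated only through WT replicate 4.

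Levels of the 9 genes were close in the 2 genotypes. None was called at an adjusted p under 0.05 by edgeR, where 0.0272% of all tested genes were, by DESeq2, where 0.16% were, or by limma-voom, where 0.0272% were. At an unadjusted p under 0.05, 1 of the 9, Sst, passed in each of the 3 tools, against 5.53% of all genes in edgeR's test. In none of the 9 did the libraries of one genotype all lie on one side of the other, which 3.34% of all tested genes showed. The log2 fold change of ErbB4-/- over WT was above 0 in 4 genes and below 0 in 5, with a median of -0.0156 for the 9 and of -0.0022 over all tested genes. Summed over the 9 genes, the level was 707 ± 78.3 CPM (SD, n = 4) in WT and 692 ± 77.9 CPM (SD, n = 4) in ErbB4-/- libraries.

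**Figure D1:**
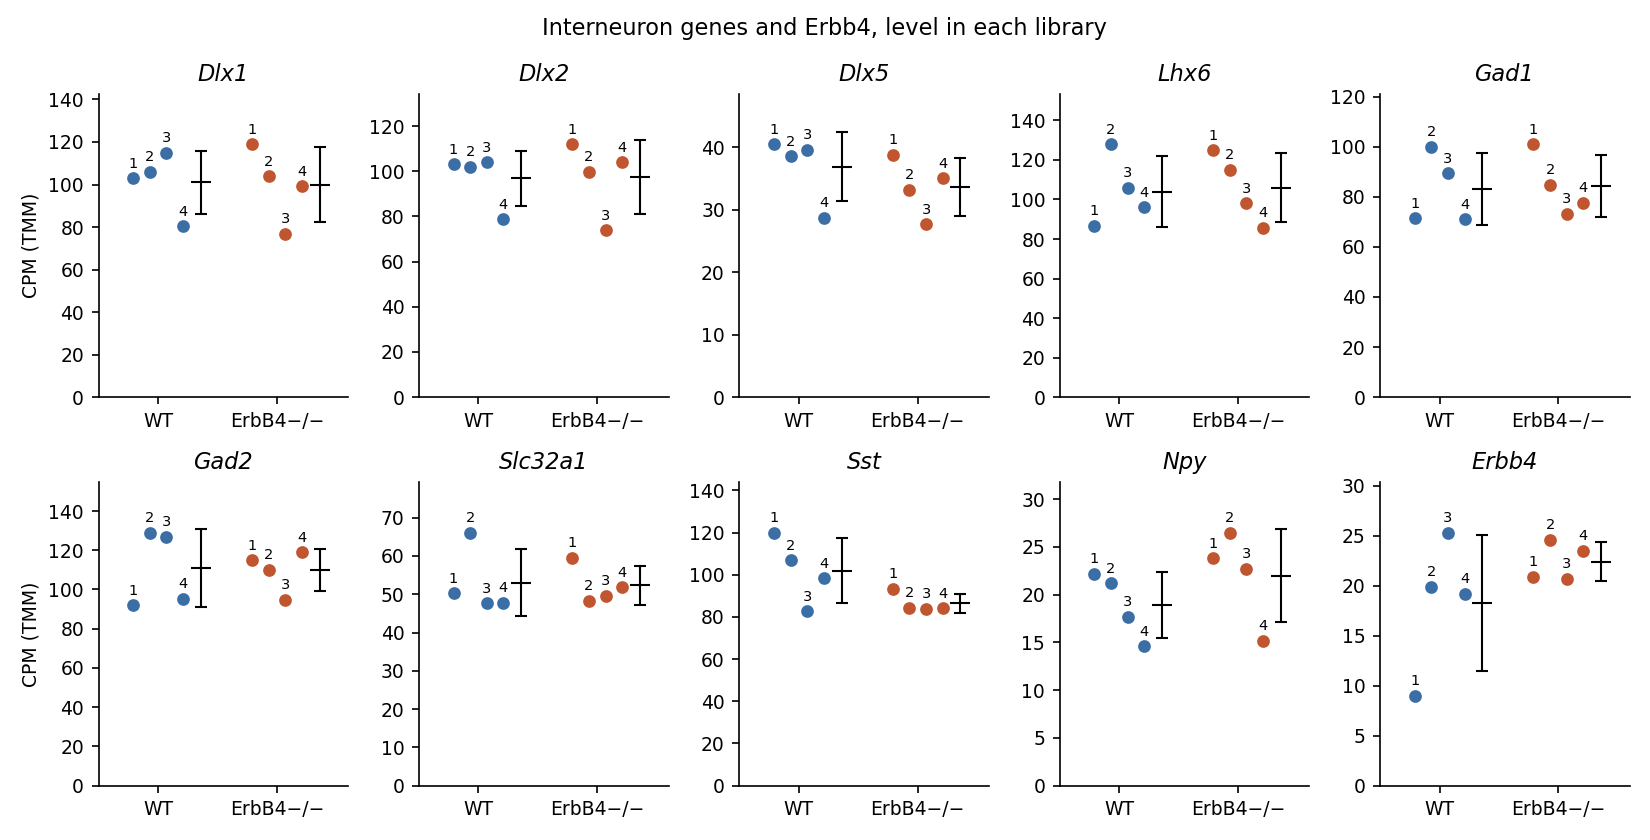
Level of each interneuron gene and of Erbb4, in CPM on axes that start at 0, for the 4 WT libraries (blue) and the 4 ErbB4-/- libraries (orange), with replicate numbers above the points and the mean and SD in black. The genotypes overlap in every panel, and WT replicate 4 and ErbB4-/- replicate 3 are the lowest of their genotype for Dlx1, Dlx2 and Dlx5.

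Among the transcription factors, Dlx1 had 103, 106, 115 and 80.5 CPM in WT replicates 1 to 4 and 119, 104, 76.9 and 99.3 CPM in ErbB4-/- replicates 1 to 4. One library of each genotype was low, and the others of both genotypes lay between 99.3 and 119. Mean levels of 101 ± 14.8 CPM in WT and 100 ± 17.6 CPM in ErbB4-/- libraries (SD, n = 4 each) gave a ratio of 0.987 with a 95% interval from 0.808 to 1.2 (adjusted p = 0.981, edgeR).

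Dlx2, its neighbour on chromosome 2, had 103, 102, 104 and 78.7 CPM in WT and 112, 99.7, 73.9 and 104 CPM in ErbB4-/- replicates 1 to 4. The same pair of libraries was low, WT replicate 4 and ErbB4-/- replicate 3. The ratio of the genotypes was 1.01, with a 95% interval from 0.833 to 1.21 (adjusted p = 0.992, edgeR).

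Dlx5, which follows Dlx1 and Dlx2 in the differentiation of these neurons, had 40.5, 38.6, 39.6 and 28.7 CPM in WT and 38.8, 33.2, 27.7 and 35 CPM in ErbB4-/- libraries. Again WT replicate 4 and ErbB4-/- replicate 3 were the lowest. Its means were 36.9 ± 5.49 and 33.7 ± 4.63 CPM (SD, n = 4 each), a ratio of 0.914 with a 95% interval from 0.759 to 1.1 (adjusted p = 0.829, edgeR). Dlx6, the paired gene beside Dlx5, was looked up after these values were seen and had its lowest levels in the same libraries, 7.32 CPM in WT replicate 4 and 6.68 CPM in ErbB4-/- replicate 3, against 8.76 to 12.5 CPM in the other 6.

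Lhx6 differed from the Dlx genes in which libraries were low. It had 86.7, 128, 106 and 96.1 CPM in WT and 125, 115, 98.2 and 85.7 CPM in ErbB4-/- libraries, lowest in ErbB4-/- replicate 4 and WT replicate 1 and highest in WT replicate 2 and ErbB4-/- replicate 1. The means, 104 ± 17.8 and 106 ± 17.6 CPM (SD, n = 4 each), gave a ratio of 1.02 with a 95% interval from 0.834 to 1.24 (adjusted p = 0.975, edgeR).

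The genes for making and packaging GABA were again close in the 2 genotypes. Gad1, which encodes the larger form of glutamate decarboxylase, had 71.4, 100, 89.4 and 71 CPM in WT and 101, 84.8, 73.2 and 77.6 CPM in ErbB4-/- libraries. It was highest in the libraries where Lhx6 was highest, ErbB4-/- replicate 1 and WT replicate 2. The genotype ratio of Gad1 was 1.02, with a 95% interval from 0.839 to 1.23 (adjusted p = 0.976, edgeR).

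Gad2, the gene of the smaller form, had 91.9, 129, 127 and 95.3 CPM in WT and 115, 110, 94.8 and 119 CPM in ErbB4-/- libraries. The WT libraries split into a pair at 127 and 129 and a pair at 91.9 and 95.3, and 3 of the ErbB4-/- libraries lay between these pairs. Means of 111 ± 20 and 110 ± 10.6 CPM (SD, n = 4 each) gave a ratio of 0.989 with a 95% interval from 0.829 to 1.18 (adjusted p = 0.982, edgeR).

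Slc32a1 loads GABA into synaptic vesicles. It had 50.3, 66.1, 47.7 and 47.8 CPM in WT and 59.5, 48.3, 49.6 and 51.9 CPM in ErbB4-/- libraries. WT replicate 2 stood above all others, followed by ErbB4-/- replicate 1, and the remaining 6 lay within 47.7 to 51.9. The ratio was 0.988, with a 95% interval from 0.838 to 1.16 (adjusted p = 0.979, edgeR).

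The neuropeptide genes gave the only fold changes beyond 0.2 on the log2 scale, in opposite directions. Sst encodes somatostatin, a peptide of interneurons from the medial ganglionic eminence. It had 120, 107, 82.6 and 98.4 CPM in WT and 93.4, 84.4, 84 and 84.2 CPM in ErbB4-/- libraries. Of the WT libraries 3 lay above every ErbB4-/- library, while WT replicate 3 lay below them all, so the genotypes overlapped. The mean level was 102 ± 15.6 CPM in WT and 86.5 ± 4.59 CPM in ErbB4-/- libraries (SD, n = 4 each), which is -0.23 (SE 0.097) on the log2 scale and a ratio of 0.85 with a 95% interval from 0.733 to 0.984. The unadjusted p of edgeR's test was 0.033, rank 503 of the 14696 genes, and the adjusted p was 0.81 in edgeR's, 0.773 in DESeq2's and 0.809 in limma-voom's test. The exact two-sided permutation test over the 70 assignments of the libraries gave p = 0.143 for Sst, where 0.0286 is the smallest possible. With the trend of each library with transcript length removed, the log2 fold change of Sst was -0.13, and without WT replicate 1 it was -0.15.

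Npy encodes neuropeptide Y, which many somatostatin interneurons also make. It had 22.2, 21.2, 17.7 and 14.6 CPM in WT and 23.8, 26.5, 22.7 and 15.2 CPM in ErbB4-/- libraries. All but 1 of the ErbB4-/- libraries lay above all WT libraries, and that one, replicate 4, lay near the lowest of them, WT replicate 4. Means of 18.9 ± 3.47 and 22 ± 4.85 CPM (SD, n = 4 each) gave 0.22 (SE 0.17) on the log2 scale and a ratio of 1.17 with a 95% interval from 0.904 to 1.51 (adjusted p = 0.81, edgeR). The exact two-sided permutation p of Npy was 0.343. Npy had the widest interval of the 9 genes, with a coefficient of variation between libraries of 18.3% in WT and 22% in ErbB4-/-, against a counting error of 3.67%.

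**Figure D2:**
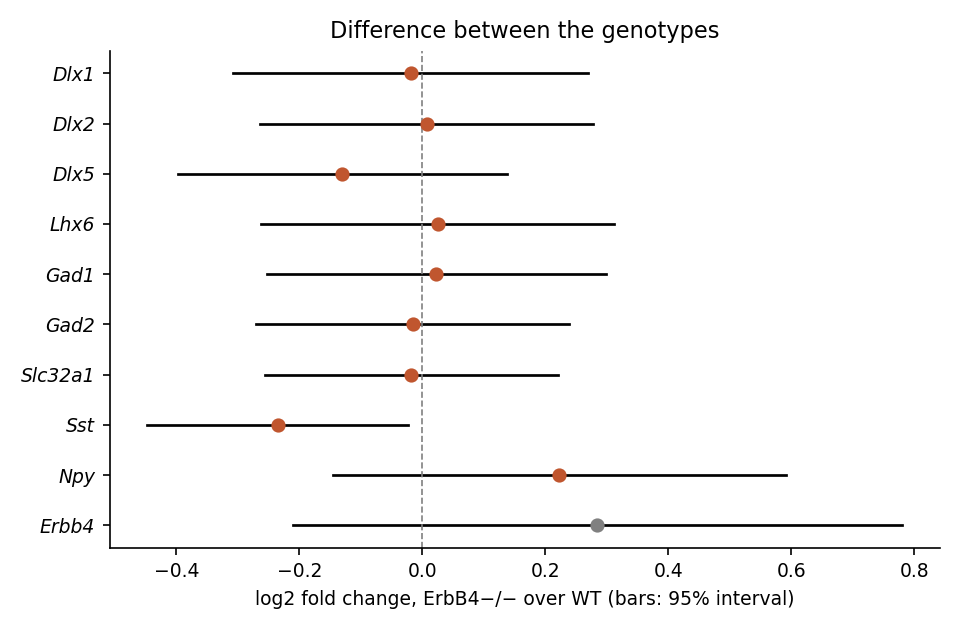
Log2 fold change of ErbB4-/- over WT for the 9 interneuron genes (orange) and Erbb4 (grey), with 95% intervals of edgeR's model. The interval of Sst, from -0.45 to -0.02, is the only one that leaves out 0, before any adjustment for the number of genes tested.

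Single libraries set the sign of the smaller fold changes. With each library left out in turn, Dlx5 and Sst stayed below 0 and Npy above 0, whereas the sign of each of the other 6 genes changed at least once. When the sex-linked pattern was added to the model, which leaves the genotype difference to rest on WT replicate 4 alone on the WT side, the log2 fold changes were 0.31 for Dlx1 and Dlx2, 0.23 for Dlx5, 0.20 for Gad2, 0.25 for Gad1, 0.14 for Lhx6, 0.13 for Slc32a1, 0.59 for Npy and -0.19 for Sst. The adjusted p of each was 1 (edgeR), and WT replicate 4 was the library in which the Dlx genes and Npy were lowest among WT.

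The libraries of a genotype differed more among themselves than the genotypes did, and the 9 genes varied partly together. Their summed level was 689, 799, 730 and 611 CPM in WT replicates 1 to 4 and 789, 707, 601 and 672 CPM in ErbB4-/- replicates 1 to 4. In WT replicate 2 all 9 genes were above their own mean over the libraries, and in ErbB4-/- replicate 1 it was 8 of 9. In WT replicate 4 and in ErbB4-/- replicate 3, 8 of 9 were below it. The exceptions were Sst in WT replicate 4 and Npy in ErbB4-/- replicate 3. High and low libraries thus occurred in both genotypes.

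**Figure D3:**
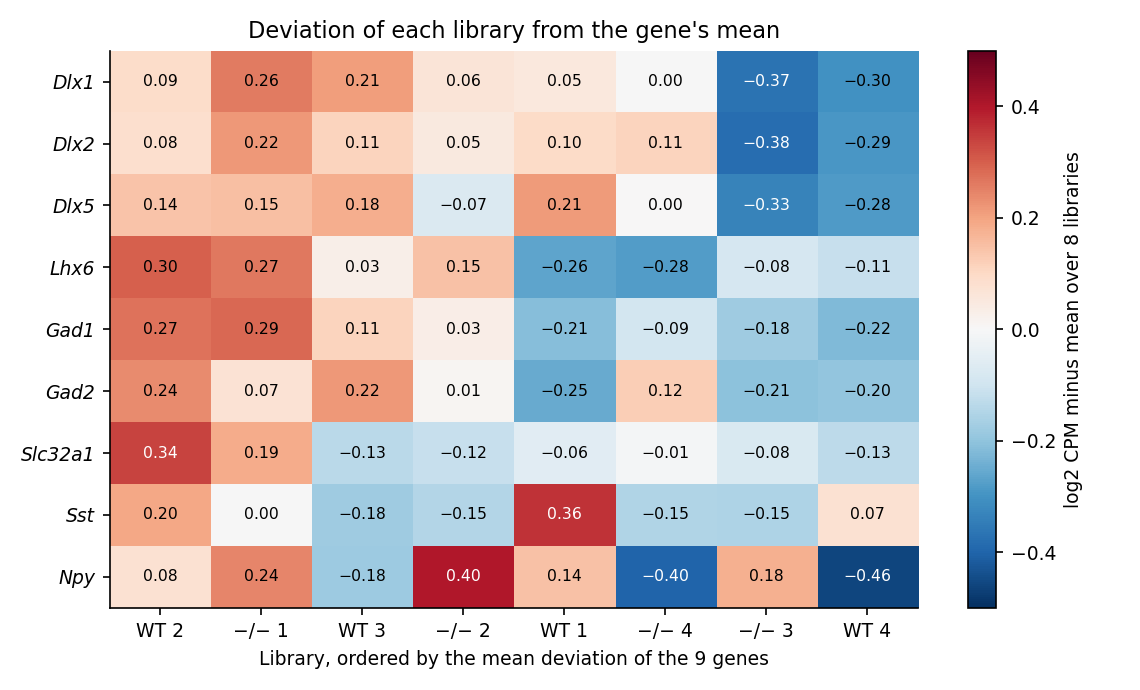
Log2 CPM of each gene in each library minus its mean over the 8 libraries, red above and blue below, with libraries ordered from the highest to the lowest mean deviation and "−/−" standing for ErbB4-/-. Rows of Dlx1, Dlx2 and Dlx5 share their lowest values in the last 2 columns, and Sst has its highest value in WT replicate 1.

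Of the 36 pairs of the 9 genes, 32 had a Pearson r above 0 over the 8 libraries, with a median of 0.426. Dlx1 and Dlx2 had the highest, r = 0.96 (exact permutation p = 0.00141, adjusted p = 0.548 over the 132255 pairs of one of the 9 genes with any tested gene; Spearman's rho = 0.786, exact permutation p = 0.0279). Among all genes tested against Dlx2, Dlx1 ranked 1 by r, and among those tested against Dlx1, Dlx2 ranked 2. Without the 2 libraries farthest from the median of Dlx1, r was 0.694, so much of it rests on those libraries. Dlx5 followed both, with r = 0.907 for Dlx1 and r = 0.914 for Dlx2 (exact permutation p = 0.00595 and 0.00446, adjusted p = 0.617 and 0.601). Their rho was 0.69 and 0.786 (exact permutation p = 0.0694 and 0.0279), and r came to 0.468 and 0.417 without the 2 farthest libraries.

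Lhx6 and Gad1 had r = 0.884 (exact permutation p = 0.0067, adjusted p = 0.639; rho = 0.786, exact permutation p = 0.0279), and 0.684 without the 2 farthest libraries. For Gad1 and Gad2 r was 0.809 (exact permutation p = 0.0227, adjusted p = 0.725; rho = 0.738, exact permutation p = 0.0458), and it was 0.872 without the 2 farthest. With genotype means removed these correlations were 0.883 and 0.812. In all, 7 of the 36 pairs had an unadjusted exact p under 0.05, against 6.51% of the 132255 pairs, and no pair passed after adjustment. The smallest possible exact permutation p with 8 libraries was 2.48e-05. A pair could therefore pass only if many others had p-values about as small, so the adjustment could hardly have called any.

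Sst followed this pattern least, and Npy was also loosely tied to it. The r of Sst with the other 8 genes was between -0.318, with Gad2, and 0.383, with Dlx5, and was above 0 in 5 of the 8. For Npy r was between -0.0755, with Gad2, and 0.522, with Lhx6, and it was 0.205 with Dlx2 and 0.181 with Dlx5. The median r of the 28 pairs without Sst was 0.528. Some ratios of levels were chosen after the levels were seen and are given without a test. Dlx2 over Dlx1 was 0.959 ± 0.0435 (SD, n = 4) in WT and 0.975 ± 0.0475 (SD, n = 4) in ErbB4-/- libraries, with a coefficient of variation of 4.45% over all 8. Npy over Sst was 0.185, 0.199, 0.214 and 0.149 in WT and 0.255, 0.313, 0.27 and 0.18 in ErbB4-/- libraries, a coefficient of variation of 24.7%, and Npy over Lhx6, without Sst, had one of 19.4%. The last value of Npy over Sst, ErbB4-/- replicate 4, was inside the WT range and the other 3 were above it.

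Ordered by level per kilobase of the longest transcript, which allows genes to be compared with each other, Sst was first with 157 ± 22.5 CPM per kb (SD, n = 8). Dlx2 followed at 39.3, Npy at 36.2, Lhx6 at 30.2, Dlx5 at 24.8, Dlx1 at 24.5, Gad1 at 23.2, Gad2 at 19.2 and Slc32a1 at 18.8 CPM per kb. Erbb4 had 1.69 ± 0.426 CPM per kb (SD, n = 8). The range of Sst lay above that of Dlx2 and the range of Slc32a1 above that of Erbb4, while all other neighbours in this order overlapped over the libraries. With all annotated exons of a gene counted as its length, Sst stayed first, but Gad1 moved to place 9 at 10.9 CPM per kb, so the order in the middle depends on the transcript assumed.

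The relation of each gene to Erbb4 over the 8 libraries was examined next. For 2 of the 9 genes the unadjusted exact p of Pearson's r was under 0.05, but 21.2% of all 14695 genes passed the same limit. After adjustment over all genes, 0 of the 9 and 0% of all genes passed. With 8 libraries the smallest possible exact permutation p was 2.48e-05. A gene could therefore pass only if several others had p-values about as small, so this outcome says little. Sst had the strongest relation, r = -0.865 (exact permutation p = 0.00223, adjusted p = 0.173; rho = -0.81, exact permutation p = 0.0218, adjusted p = 0.621). WT replicate 1 had the lowest Erbb4 and the highest Sst, and WT replicate 3 the highest Erbb4 and the lowest Sst. Without both, r was -0.746 (exact permutation p = 0.125). With genotype means removed r was -0.843 (exact permutation p = 0.125 over 576 pairings within genotype) and rho was -0.429 (exact permutation p = 0.373).

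WT replicate 1, with less than 9 CPM of Erbb4, set the number of genes related to it. Without this library the share of all genes under the same limit was 5.02%, and the r of Sst was -0.785 (exact permutation p = 0.044, adjusted p = 0.971). With each library's trend with transcript length removed, the share was 11.8% and the r of Sst was -0.31 (exact permutation p = 0.403), whereas its rho was -0.69 (exact permutation p = 0.0694). The longest transcript has 599 nucleotides for Sst and 12037 for Erbb4.

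Gad2 had the other unadjusted p under 0.05, in the opposite direction. Its r with Erbb4 was 0.607 (exact permutation p = 0.0458, adjusted p = 0.232; rho = 0.524, exact permutation p = 0.197). The exact permutation p passed 0.05 again without WT replicate 2, ErbB4-/- replicate 2 or ErbB4-/- replicate 3, and missed it without any one of the other 5 libraries. Without WT replicate 1 r was 0.435 (exact permutation p = 0.316), without the 2 farthest libraries 0.244, and with the length trend removed 0.321 (exact permutation p = 0.485). With genotype means removed it was 0.675 (exact permutation p = 0.0469, adjusted p = 0.39; rho = 0.762, exact permutation p = 0.0295, adjusted p = 0.474). Lhx6 and Gad1 had r = 0.413 and 0.417 (exact permutation p = 0.37 and 0.349), and -0.141 and 0.0886 without WT replicate 1 (exact permutation p = 0.757 and 0.842). For the remaining genes r was 0.0657 for Dlx1, -0.0377 for Dlx2, -0.278 for Dlx5, -0.0107 for Slc32a1 and -0.148 for Npy, with exact permutation p from 0.567 to 0.982. In all, 4 of the 9 had r above 0, a count that was 6 of 9 without WT replicate 1 and 8 of 9 with the length trend removed. The share of all genes with r above 0 was 49.8%, 48.4% and 50.2% in these settings.

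**Figure D4:**
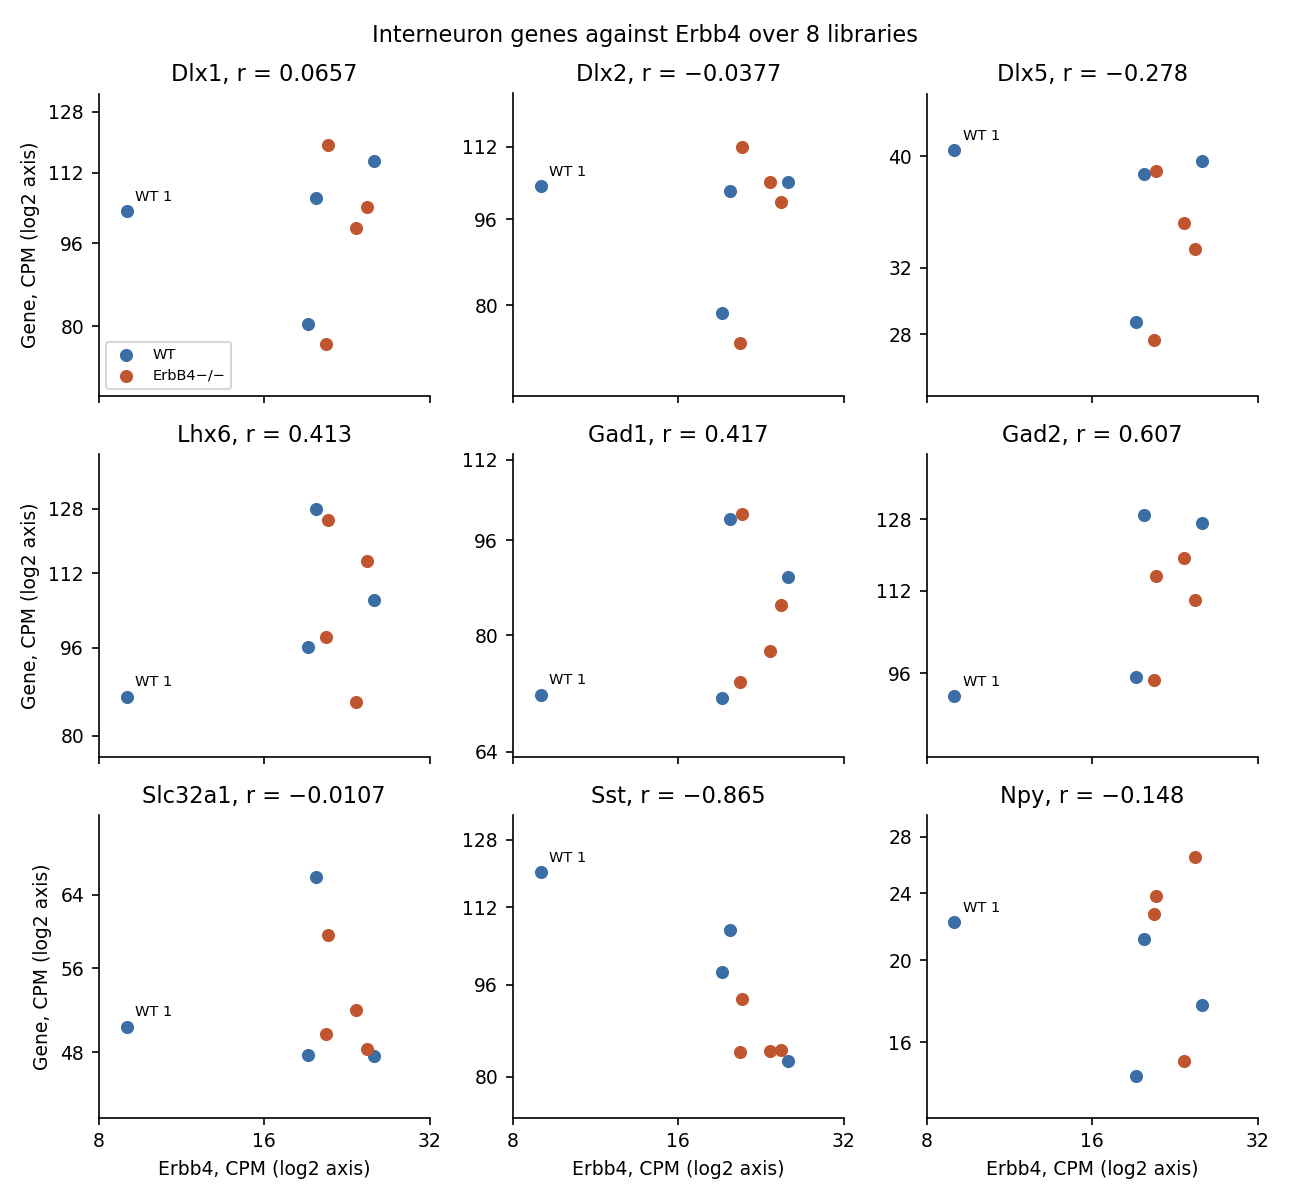
CPM of each interneuron gene against CPM of Erbb4 in the 8 libraries, both on log2 axes, WT in blue and ErbB4-/- in orange, with Pearson's r of the log2 values above each panel. WT replicate 1 (labelled) lies apart at 8.99 CPM of Erbb4, while the other 7 libraries lie between 19.2 and 25.3.

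The genes whose levels were most like the mean of the 9, after each of the 9 was scaled to the same spread, were ranked over 13271 other genes with at least 1 CPM. Among the first 10 were Grik1 (r = 0.98), Nell1 (0.948), Gm10767 (0.946), Cryl1 (0.944), Clip4 (0.929), Actn2 (0.907), Epb4.1l4a (0.905), Pcbd1 (0.901) and Setd4 (0.898). Grik1, a kainate receptor subunit gene, ranged from 14.6 CPM in WT replicate 4 to 18.9 CPM in WT replicate 2. Erbb4 ranked 5751, with r = 0.026. These correlations over 8 libraries are descriptions and carry no test.

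Of 87 tested genes in 10 lists of related genes and other cell types, 0 were called by edgeR or limma-voom at an adjusted p under 0.05, and DESeq2, which tested 90 of the lists' genes, called 1, Hba-x of the red blood cell list. At an unadjusted p under 0.05 edgeR had 9 of them, 1 receptor of interneuron migration, 3 glutamatergic, 2 red blood cell and 3 choroid plexus genes, against 5.53% of all genes. The 3 choroid plexus genes did not pass in limma-voom, where 0 of that list did, and their sums were high in ErbB4-/- replicate 3 alone. WT replicate 1 stood apart in several lists. It had the lowest sum of the 8 libraries for the other transcription factors (1009 CPM), the migration genes (1217 CPM), the GABA uptake genes (578 CPM) and the peptide genes (273 CPM), and the highest for the glutamatergic genes (3358 CPM). The counts of higher and lower genes in the lists are therefore also given without it. Among 12 other transcription factors of interneurons, 8 were higher and 4 lower in ErbB4-/- libraries, and the median of their log2 fold changes was 0.05. Without WT replicate 1 it was 6 and 6, with a median of 0.03. The most abundant was Zeb2, a zinc finger factor that sends cells towards the cortex, with 417 ± 43 CPM in WT and 462 ± 31.7 CPM in ErbB4-/- libraries (SD, n = 4 each), a log2 fold change of 0.15 (adjusted p = 0.81, edgeR). The level of Zeb2 was 353 CPM in WT replicate 1 and 431 to 447 CPM in the other WT libraries. It was highest, 498 CPM, in ErbB4-/- replicate 3, where 8 of the 9 interneuron genes were below their mean. Whole tissue does not show which cells its reads came from. As the most abundant gene it weighs most in the sum of this list, which is therefore not a measure of interneurons alone. Npas1 had the largest value of the list, 0.20 (adjusted p = 0.829, edgeR).

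Of 13 genes for cues and receptors of interneuron migration, 9 were higher and 4 lower, with a median of 0.04, and without WT replicate 1 it was 6 and 7, with a median of -0.03. Nrp1, a semaphorin co-receptor, had 138, 162, 154 and 160 CPM in WT and 175, 199, 194 and 163 CPM in ErbB4-/- libraries, so every ErbB4-/- library lay above every WT library. Its log2 fold change was 0.25 (SE 0.075, unadjusted p = 0.0059, adjusted p = 0.81, edgeR). Nrg3, a neuregulin that ErbB4 binds, had 31.3 ± 3.45 and 34.9 ± 1.32 CPM (SD, n = 4 each), a log2 fold change of 0.16 (adjusted p = 0.81, edgeR). Robo1 had the lowest value of the list, -0.16, with 229 ± 50.5 and 205 ± 7.7 CPM (SD, n = 4 each, adjusted p = 0.811, edgeR).

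Genes for the uptake and breakdown of GABA numbered 6, of which 5 were tested and all 5 were higher, with log2 fold changes from 0.02 for Abat, the GABA transaminase, to 0.18 for Slc6a11, a GABA transporter, and a median of 0.09 (adjusted p = 0.81 for Slc6a11, edgeR). Without WT replicate 1, 4 of the 5 were higher, with a median of 0.03. Of 13 genes of peptides and interneuron subtypes, 11 were tested, 8 higher and 3 lower, with a median of 0.04, and the same counts with a median of 0.12 without WT replicate 1. Nos1, which makes nitric oxide in a subset of interneurons, had 32.5 ± 10.4 and 42.7 ± 5.13 CPM (SD, n = 4 each), a log2 fold change of 0.39 (adjusted p = 0.81, edgeR). WT replicate 1 was the lowest, as Nos1 had 20.1, 32.2, 32.1 and 45.6 CPM in WT replicates 1 to 4. Pvalb, the parvalbumin gene of a subtype that matures after birth, had 0 reads in every library.

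Markers of the tissue where interneurons are born were measured beside these values, since the ganglionic eminences adjoin the dissected cortex. The 9 genes of ganglionic eminence progenitors summed to 205, 250, 263 and 185 CPM in WT and 264, 235, 179 and 224 CPM in ErbB4-/- libraries, lowest in WT replicate 4 and ErbB4-/- replicate 3, where the Dlx genes were also lowest. Of them 4 were higher and 5 lower, and the median of their log2 fold changes was -0.01, or -0.05 with the same counts without WT replicate 1. The largest changes of the list were those of Gbx2, at -0.60, and Lhx8, at -0.28 (adjusted p = 0.81 and 0.847, edgeR). None of the list was at 0 in every library, and Nkx6-2 was at 0 in ErbB4-/- replicate 4 alone. Nkx2-1, which defines the medial eminence, had 7.63, 24.6, 19.2 and 12.1 CPM in WT and 27, 13.9, 9.37 and 11 CPM in ErbB4-/- libraries, highest in the libraries where Lhx6 and Gad1 were highest. Its part in the levels of Lhx6 and Gad1 was not tested. Dlx6as1, an antisense transcript of the Dlx5 and Dlx6 locus, had 120 ± 22.6 and 124 ± 17.4 CPM (SD, n = 4 each). It was the most abundant gene of this list and lowest in the same libraries, with 98.9 CPM in WT replicate 4 and 99.4 CPM in ErbB4-/- replicate 3. The sum of the list is therefore not a reading independent of the Dlx genes.

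The 12 genes of striatal projection neurons summed to 260 to 306 CPM in WT and 263 to 286 CPM in ErbB4-/- libraries, with 7 higher and 5 lower and 0.01 as the median of their log2 fold changes, or 5 higher and 7 lower with a median of -0.02 without WT replicate 1. The 11 genes of the cortical glutamatergic lineage, which stand for the labelled tissue, summed to 2841 to 3358 and 2694 to 3100 CPM, and 9 were lower and 2 higher, with a median of -0.11. Without WT replicate 1 it was 7 and 4, with a median of -0.06. Their sum was lowest, 2694 CPM, in ErbB4-/- replicate 1 and next lowest, 2841 CPM, in WT replicate 2, the libraries with the highest sums of the 9 interneuron genes. Neurog2, a proneural gene of glutamatergic progenitors, had 203 ± 27.6 and 159 ± 23 CPM (SD, n = 4 each), a log2 fold change of -0.35 (unadjusted p = 0.00864, adjusted p = 0.81, edgeR).

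Among other cell types, 8 genes of meninges and vessels summed to 70.8 to 88 CPM in WT and 70.2 to 80.3 CPM in ErbB4-/- libraries, with 4 of 7 tested genes higher and a median of 0.01, or 5 of 7 and a median of 0.12 without WT replicate 1. The 8 red blood cell genes summed to 31.8 to 56.6 and 20.8 to 35.2 CPM, with 1 of 4 tested genes higher and a median of -0.69 (2 of 4 and -0.55 without WT replicate 1), and Hba-a1 and Hba-a2 were at 0 in every library. Hbb-y, an embryonic globin gene, had a log2 fold change of -1.72 (adjusted p = 0.81, edgeR). The 4 choroid plexus genes summed to 1.36 to 12.2 CPM in 7 libraries and to 607 CPM in ErbB4-/- replicate 3, where Ttr, the transthyretin gene of this tissue, had 572 CPM. That library also held the lowest levels of Dlx1, Dlx2 and Dlx5. Without it and WT replicate 1 together, a setting added after the data were seen, the log2 fold change was 0.10 for Dlx1, 0.15 for Dlx2 and -0.13 for Sst, and still 0 of the 9 genes passed an adjusted p of 0.05 (edgeR).

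**Figure D5:**
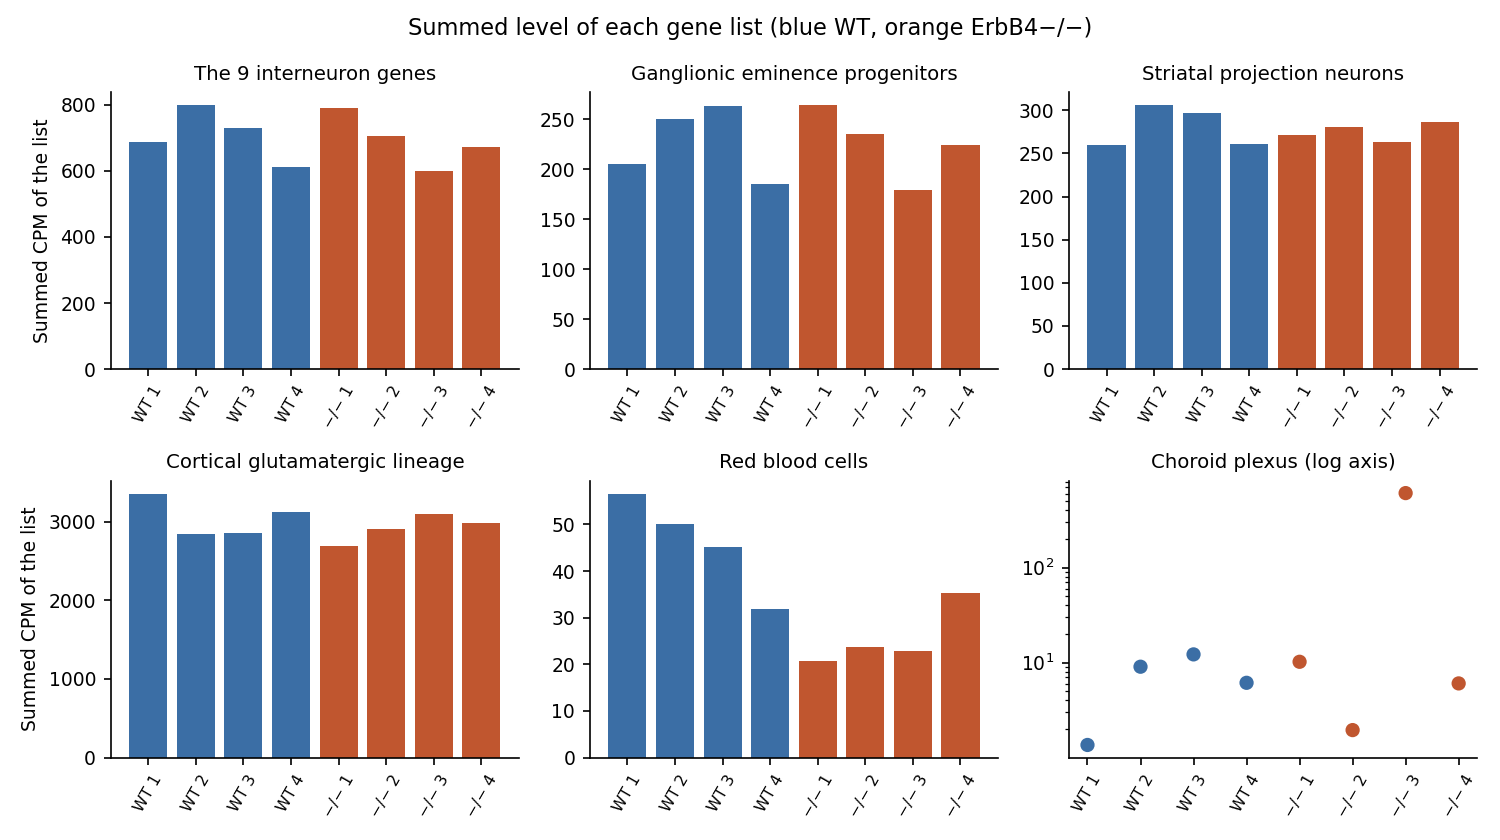
Summed CPM of 6 gene lists in each library, as bars that start at 0 and, for choroid plexus genes, as points on a log axis, with "−/−" standing for ErbB4-/-. The sums of the 9 interneuron genes and of the ganglionic eminence genes are lowest in WT replicate 4 and ErbB4-/- replicate 3, and the latter has 607 CPM of choroid plexus genes against at most 12.2 CPM elsewhere.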

How the data were processed

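RNA was extracted from dorsal cortex with a RIN above 8 and sequenced as single-end, polyA-selected reads that do not keep the strand. HISAT was used by the authors for mapping to mm9 and HTSeq-count for counting, and the counting mode and annotation are not given in the sources used here. The deposited files hold raw counts, which were used as they stand. A deposited table of the authors' own DESeq2 comparison (fold changes and p-values) was not used.

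Counts were scaled by TMM in edgeR 4.0.16 (R 4.3.3), filtered with filterByExpr (minimum count 10, minimum total 15) and tested between the genotypes with glmQLFit and glmQLFTest over all 8 libraries with no covariate. Adjustment was by Benjamini-Hochberg over 14696 genes, with a threshold of 0.05, and intervals are at 95%. Log2 CPM had a prior count of 2. Relations to Erbb4 and between genes were tested by all pairings of the libraries, 40320 with all 8, 5040 with 1 left out, 720 with 2 left out and 576 within genotype for deviations from the genotype means. Positions came from GENCODE for NCBIM37 (mm9), matched by symbol, and promoters from RefSeq (GRCm38.p6).

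Every one of the 9 genes is named. Also named are Erbb4, up to 3 genes by level and 2 by size of change in each list, and the 10 genes most like the mean of the 9. Dlx6, Dlx1as, Xist and Ddx3y were added after their values were seen. A few genes that this rule names are not reported here. The 9 genes and the lists were chosen with earlier results of these data known.

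The alternatives were DESeq2 1.42.0, limma-voom (limma 3.58.1), RLE, upper-quartile and total-count scaling, other filters, a prior count of 0.5, the replicate block, the sex-linked pattern as covariate, removal of each library's trend with transcript length, and libraries left out. The steps were tested on simulated data. Plots were made in Python 3.11.15 (matplotlib 3.10.9).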

Additional observations from a re-analysis of the deposited data

Results flagged for a closer look

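Of 42 groups of 4 libraries examined for a library far from the other 3 (Dixon's ratio above 0.829, which chance exceeds in about 1 of 20 groups), 5 were found. Dlx2 in WT replicate 4 was at 78.7 CPM against 102 to 104 in the other WT libraries, and Dlx5 in the same library was at 28.7 CPM against 38.6 to 40.5. Slc32a1 in WT replicate 2 was at 66.1 CPM, with the others at 47.7 to 50.3. Sst in ErbB4-/- replicate 1 was at 93.4 CPM, with the others at 84 to 84.4. The summed choroid plexus genes of ErbB4-/- replicate 3 were at 607 CPM against 1.95 to 10.2 in the other ErbB4-/- libraries.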

How the results depend on the processing

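None of the 9 genes passed an adjusted p of 0.05 between the genotypes, or in the relation to Erbb4, under any alternative run, each library left out included. For the relation to Erbb4, the smallest possible exact permutation p was 0.000198 with 1 library left out, 0.00139 with 2 left out and 0.00174 within genotype. After adjustment over all genes such values could hardly pass 0.05, so those settings cannot show that the result is stable. With all 8 libraries the smallest possible exact permutation p was 2.48e-05, and there too a gene could pass only together with several others. The lowest adjusted p of the genotype comparison in any of the 9 was 0.539 (for Sst). With the sex-linked pattern as covariate the median log2 fold change of the 9 was 0.23, with Dlx1 at 0.31, Dlx5 at 0.23, Gad2 at 0.20 and Slc32a1 at 0.13. Without WT replicate 1 and ErbB4-/- replicate 3, Dlx1 was at 0.10, Dlx5 at 0.0045 and Lhx6 at -0.013. With single libraries left out, log2 fold changes ranged from -0.117 to 0.088 (Dlx1), -0.081 to 0.119 (Dlx2), -0.08 to 0.126 (Gad1), -0.095 to 0.065 (Gad2), -0.064 to 0.139 (Lhx6), -0.086 to 0.106 (Slc32a1), -0.23 to -0.05 (Dlx5), -0.32 to -0.15 (Sst) and 0.12 to 0.36 (Npy). Pearson's r with Erbb4 then ranged from -0.059 to 0.482 (Dlx1), -0.11 to 0.474 (Dlx2), -0.431 to 0.379 (Dlx5), -0.141 to 0.625 (Lhx6), 0.089 to 0.48 (Gad1), 0.435 to 0.704 (Gad2), -0.353 to 0.104 (Npy), -0.448 to 0.097 (Slc32a1) and -0.949 to -0.785 (Sst). Without the 2 libraries farthest in Erbb4, r was 0.423 for Dlx2, 0.167 for Dlx5, -0.163 for Lhx6, -0.0113 for Gad1 and 0.291 for Npy. With the length trend removed it was 0.19 for Dlx2, 0.204 for Dlx5, 0.0675 for Slc32a1 and 0.336 for Npy. For Slc32a1 it was 0.00299 with genotype means removed and 0.0139 with total-count scaling. The causes of these shifts were not tested.

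Same-numbered libraries of the 2 genotypes shared a number and no source in the labels, and their deviations correlated at 0.084, 0.135, 0.048 and 0.024. With the replicate block, 0 of the 9 genes were called, the median log2 fold change was -0.003, Dlx2 was at -0.00066, and 1 gene of all those tested was called instead of 4. Over all genes, 25 were called by DESeq2, and single libraries left out gave 1 to 13. Depth was enough for all 9 genes, and the spread of 4 libraries per genotype set the width of the intervals.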
